A study of Mus musculus with 9 samples.

Results

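Ribosome biogenesis genes were followed in tumours formed by MC38 cells, a mouse colorectal carcinoma line, in mice. In 4 tumours the implanted cells carried an empty vector (Vec, labelled WT) and in 5 they carried a knockout of CD43 (CD43-KO), and all tumours were harvested at day 21. Every host was a C57BL/6J mouse, and the labels state neither its age nor whether the knockout cells were 1 clone. The 38 genes described here were listed by symbol, out of 42454 names in the count tables and 18243 names tested. They were chosen by symbol, for their place in nucleolar RNA processing and RNA polymerase I transcription, with the Vec against CD43-KO difference of Ddx21 in these same tumours in view. Their levels are therefore a description of the members, with no test, and the counts of members called below support nothing.

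Ribosomes are built in the nucleolus, where RNA polymerase I makes a long ribosomal RNA precursor. Small nucleolar RNAs (snoRNAs), bound in box C/D and box H/ACA particles, guide its methylation and pseudouridylation, while helicases and assembly factors cut, fold and export the subunits. Myc, a transcription factor, is a known activator of many of these genes in growing and cancer cells. Ddx21 is a DEAD-box RNA helicase that acts on ribosomal RNA precursors and also at genes read by RNA polymerase II.

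Libraries held between 44814061 counts (CD43-KO replicate 3) and 72114385 counts (Vec replicate 3). Levels are counts relative to library size (CPM), scaled by TMM factors and given as mean ± SD (n = 4 for Vec and 5 for CD43-KO). A log2 fold change above 0 means a higher level in CD43-KO tumours, and its SE comes from edgeR's quasi-likelihood fit. As the RNA came from whole tumours, fewer cells of a type and less RNA per cell cannot be told apart. Spn, which encodes CD43, was at 41.0, 43.7, 44.6 and 53.8 CPM in Vec replicates 1 to 4 and at 25.6, 33.6, 31.2, 22.97 and 6.81 CPM in CD43-KO replicates 1 to 5. Of 6 epithelial markers, Krt8 and Krt18 stayed at or under 0.203 CPM in each tumour. Krt8 was at 0 in Vec replicate 1 and Krt18 at 0 in CD43-KO replicate 4. The summed level of all 6 ranged from 9.22 to 15.8 CPM in Vec and from 7.97 to 15.95 CPM with the knockout. Most of this sum was Cdh1, at 10.5 ± 2.37 and 11.5 ± 3.31 CPM. Of the 4 epithelial markers tested, 2 had a log2 fold change above 0. Krt7 was lower in CD43-KO tumours without overlap, as 3.5% of all names tested were. It ranged from 0.211 to 0.442 CPM in Vec and from 0.0507 to 0.185 CPM in CD43-KO. CD43-KO replicate 3 stood apart, with a summed level of 7 skeletal muscle genes of 996 CPM against 64.1 to 105 CPM elsewhere, and of 8 leukocyte genes of 1391 CPM against 427 to 912 CPM. Log2 fold changes were above 0 for all 8 leukocyte, 7 macrophage and 7 skeletal muscle genes and for 4 of 7 fibroblast genes. Summed macrophage levels ranged from 2579 to 4334 CPM in Vec and from 2385 to 9589 CPM in CD43-KO, and fibroblast levels from 2918 to 4219 CPM and from 2030 to 5468 CPM. The part of these cells in the levels of the members was not tested.

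The stretches printed here are the 100 bases before the start site of the 3 members whose groups did not overlap, and of Nop2, the member with a canonical E-box (CACGTG, the site bound by Myc with Max) before its start site. The sequences are those of the RefSeq promoter table of GRCm38.p6, which matched 31 of 38 members. Capitals mark CGGAAG or its reverse complement CTTCCG, the core of many ETS factor sites, in the first 3 and CACGTG in Nop2. The Nop2 stretch also holds CGGAAG, left in lower case.
Ddx21 (chr10:62602299-62602398, minus strand): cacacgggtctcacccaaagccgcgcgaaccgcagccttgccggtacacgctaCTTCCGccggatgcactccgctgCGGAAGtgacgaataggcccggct
Heatr1 (chr13:12395275-12395374, plus strand): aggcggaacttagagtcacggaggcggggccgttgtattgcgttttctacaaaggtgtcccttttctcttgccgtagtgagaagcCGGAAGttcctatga
Polr1c (chr17:46248046-46248145, minus strand): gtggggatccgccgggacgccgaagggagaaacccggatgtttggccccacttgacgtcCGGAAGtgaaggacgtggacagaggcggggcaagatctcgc
Nop2 (chr6:125131783-125131882, plus strand): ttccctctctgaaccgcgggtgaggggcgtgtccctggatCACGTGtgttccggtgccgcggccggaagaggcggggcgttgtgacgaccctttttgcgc

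In Ddx21 the matches began 47 and 24 bases before the start site, in Heatr1 15 bases and in Polr1c 41 bases before it. Within 50 bases before the start, CGGAAG or CTTCCG was found in 8 of 31 members with a promoter (25.8%), in 27 of 94 other ribosome biogenesis genes (28.7%) and in 11.2% of the 11264 protein-coding genes tested. In the window of 300 bases these shares were 51.6%, 70.2% and 32.4%. CACGTG, which reads the same on both strands, was found in the whole 300 base window of 5 members (16.1%), namely Nop2, Utp20, Pes1, Mybbp1a and Wdr43, against 21.3% of the other ribosome biogenesis genes and 11.2% of the protein-coding genes tested. Ddx21 and Heatr1, higher in CD43-KO tumours, and Polr1c, lower there by a gap of 0.01 log2 only, all held these ETS core letters. As the letters were picked from several patterns searched, and the genes by their levels, this adds no support. Of the patterns not shown, CACGCG or CGCGTG was in 35.5% of members, 31.9% of other ribosome biogenesis genes and 18.7% of protein-coding genes tested. The remaining patterns were no more frequent in members than in the protein-coding genes tested. The part of such sites in the levels was not tested. The matches are letters in a window, and binding was not measured.

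Most of the 38 members differed little between the groups, and Ddx21 had the largest difference. All 38 passed the filter on low counts, with group means from 31.1 to 1173 CPM. Of these, 28 had a log2 fold change above 0 and 10 below (54% of all names tested were above 0). Scaling by total library size gave 33 above and 5 below. With TMM scaling, 29 members lay within 0.2 of 0. The quartiles were -0.005 and 0.17 for the members and -0.16 and 0.27 for all names tested, so small differences were common in both. The median log2 fold change was 0.07 for the members and 0.03 for all names tested, and the members ranged from -0.27 (Polr1c) to 0.43 (Ddx21).

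**Figure D1:**
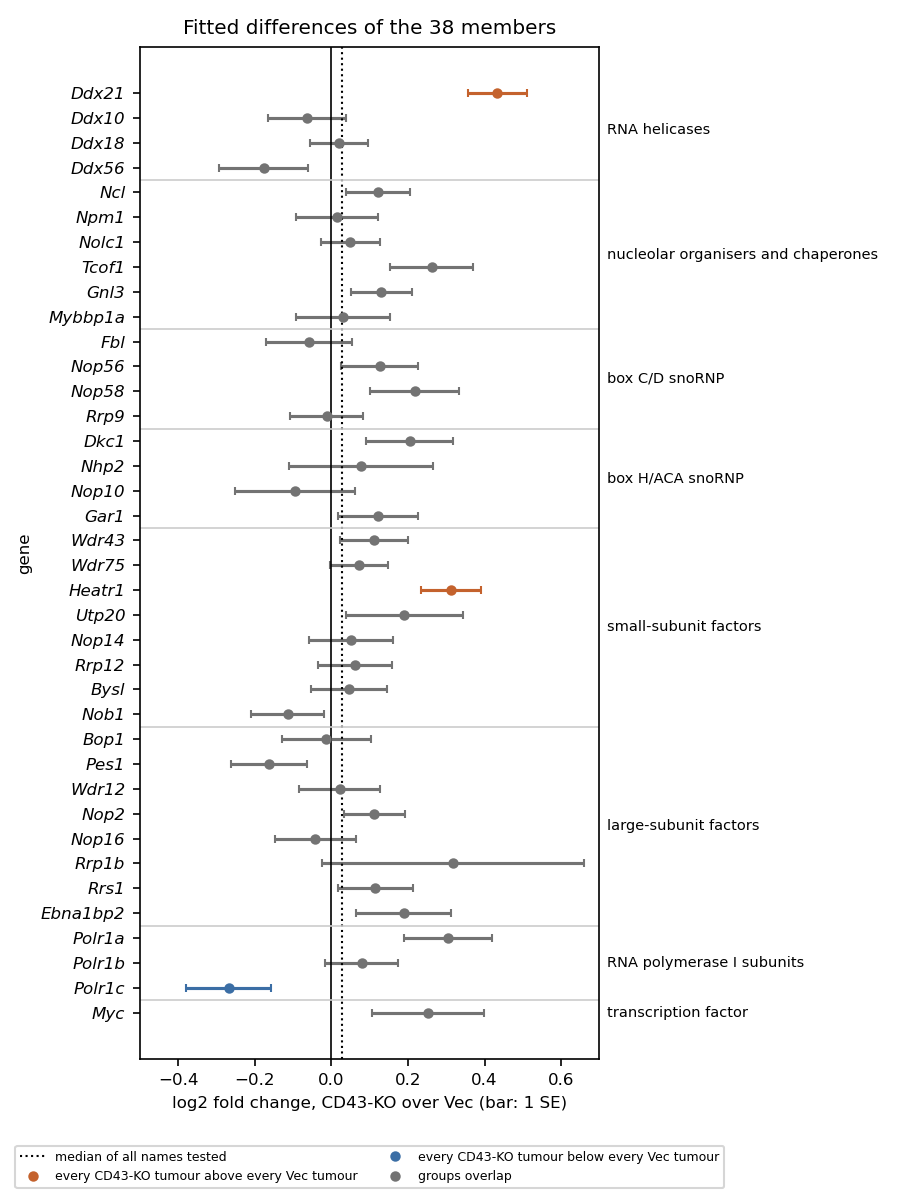
Log2 fold change (CD43-KO over Vec, horizontal axis) of each member with its SE as a bar, grouped by role from RNA helicases to Myc, and the median of all names tested (0.03) as a dotted line. Ddx21 (0.43) and Heatr1 (0.31) had all CD43-KO tumours above all Vec tumours, Polr1c (-0.27) had all below, and the other members overlapped.

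edgeR's quasi-likelihood test called 0 of the 38 members at an adjusted p of 0.05, and 0% of all names tested. At an unadjusted p under 0.05 it had 4 members higher (7.75% of all names tested were) and 1 lower (7.63%). DESeq2 called 2 members higher and 0 lower, where it called 1.35% and 2% of all names. Limma voom with quality weights called 2 higher and 0 lower, against 0.904% and 1.82% of all names. For both tools these 2 were Ddx21 and Heatr1. In 2 members every CD43-KO level lay above every Vec level (2.08% of all names tested), and in 1 member every level lay below (3.5%).

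Ddx21 was at 131, 148, 142 and 137 CPM in Vec replicates 1 to 4 and at 189, 186, 195, 174 and 199 CPM in CD43-KO replicates 1 to 5. The lowest CD43-KO tumour, replicate 4, was 0.23 log2 above the highest Vec tumour, replicate 2, and this was the widest gap of any member. The means were 139.5 ± 7.44 and 188 ± 9.56 CPM, a difference of 35.0% (log2 fold change 0.43 ± 0.08 SE), and over 16 alternative analyses the log2 fold change ran from 0.39 to 0.52. CD43-KO replicate 3, with the high muscle and leukocyte levels, was the second highest of the 9 tumours. Replicates 4 and 5, with leukocyte sums of 430 and 548.9 CPM (427 to 572 CPM in Vec), were the lowest and the highest CD43-KO tumours for Ddx21. The part of leukocytes in the Ddx21 level was not tested.

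Ddx50, the closest paralog of Ddx21, is encoded beside it on the same strand of chromosome 10 (62615895 to 62651218, with Ddx21 at 62580251 to 62602281, GRCm38), and its mean level was lower in CD43-KO tumours. It was at 94.3, 91.6, 95.3 and 86.3 CPM in Vec and at 71.2, 72.01, 82.02, 79.8 and 88.5 CPM with the knockout (-0.22 ± 0.09 SE in log2, edgeR quasi-likelihood adjusted p = 0.283). Only CD43-KO replicate 5 reached into the Vec range. The ratio of Ddx21 to Ddx50, which does not depend on library scaling, was 1.39, 1.62, 1.49 and 1.59 in Vec and 2.65, 2.58, 2.37, 2.18 and 2.25 in CD43-KO tumours, with no overlap. As Ddx21 alone already separated the groups and Ddx50 was lower on average, the ratio restates these differences and adds no support. Whether reads are shared between the paralogs was not tested.

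**Figure D2:**
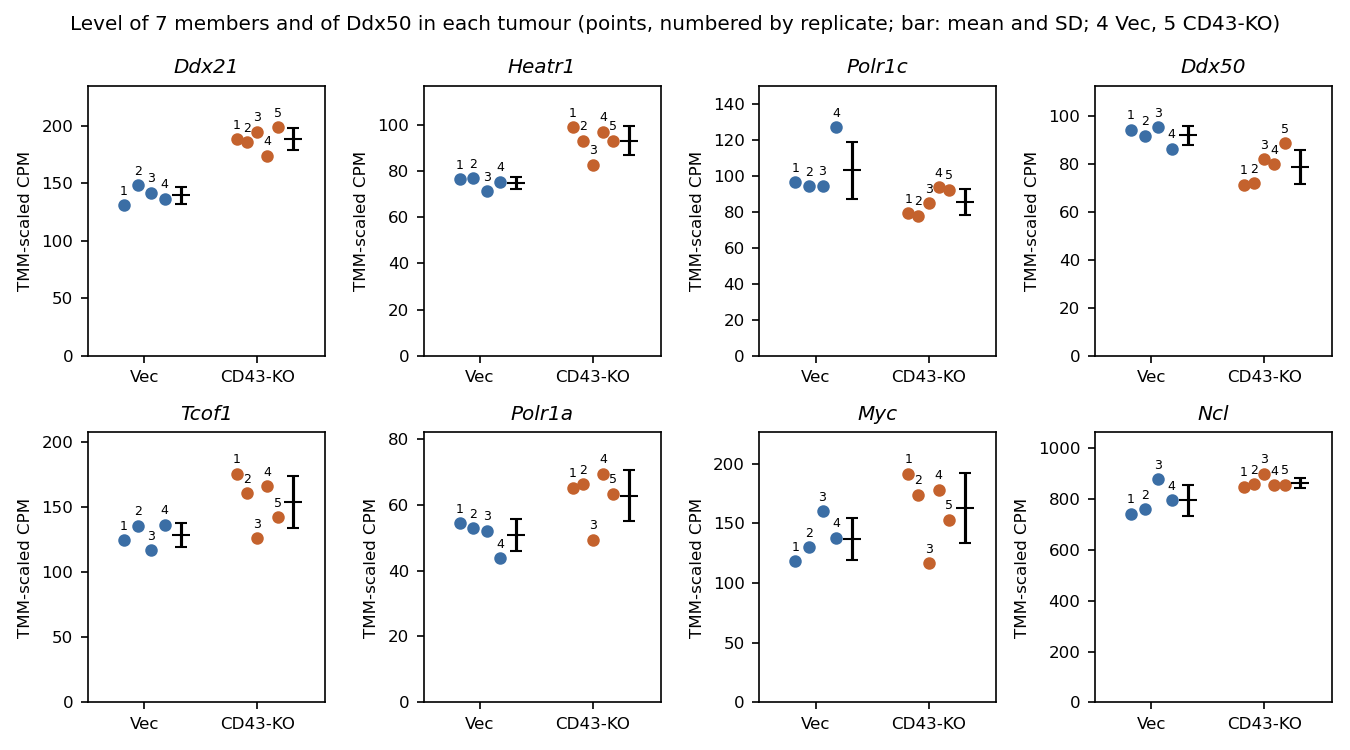
TMM-scaled CPM (vertical axis, from 0) of Ddx21, Heatr1, Polr1c, Tcof1, Polr1a, Myc and Ncl, and of the paralog Ddx50, in each of 4 Vec (blue) and 5 CD43-KO (orange) tumours, numbered by replicate, with mean and SD as bars. Ddx21 lay at 174 CPM or more in each CD43-KO tumour and at 148 CPM or less in each Vec tumour, and CD43-KO replicate 3 was the lowest CD43-KO tumour for Heatr1, Tcof1, Polr1a and Myc.

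The other nucleolar DEAD-box helicases among the members differed less. Ddx18, a factor of the large subunit, averaged 112 ± 5.10 CPM in Vec against 114 ± 6.72 CPM in CD43-KO. Ddx10, which acts on the small subunit, was at 60.9 ± 7.17 and 58.3 ± 4.88 CPM, and Ddx56, a large-subunit helicase, at 60.1 ± 9.24 and 53.2 ± 5.16 CPM. In log2 fold change these were 0.02 ± 0.08, -0.06 ± 0.10 and -0.18 ± 0.12 (SE), that of Ddx56 being -0.07 without Vec replicate 4, and 3 of 5 CD43-KO tumours lay below all Vec tumours for Ddx10 and for Ddx56.

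The RNA polymerase I subunits had values on both sides of 0. Polr1a, the largest catalytic subunit, was at 54.3, 52.8, 52.1 and 43.7 CPM in Vec and at 65.2, 66.3, 49.3, 69.4 and 63.3 CPM with the knockout (0.31 ± 0.11 SE in log2). All CD43-KO tumours but replicate 3 lay above the Vec range. Polr1c, a subunit shared with RNA polymerase III, was at 96.4, 94.4, 94.4 and 127 CPM in Vec and at 79.2, 77.8, 84.7, 93.6 and 92.4 CPM with the knockout (-0.27 ± 0.11 SE). Its groups were separated by a gap of 0.01 log2 only, Vec replicate 4 stood far above the other Vec tumours, and without it the log2 fold change was -0.16. Polr1b, the second catalytic subunit, ranged from 47.3 to 49.8 CPM in Vec and from 42.8 to 58.5 CPM in CD43-KO (0.08 ± 0.10 SE).

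Among small-subunit factors, Heatr1, which is needed for polymerase I transcription and early precursor processing, was at 76.3, 76.8, 71.1 and 75.4 CPM in Vec and at 98.9, 93.1, 82.7, 97.0 and 93.1 CPM in CD43-KO tumours. Each CD43-KO tumour was above each Vec tumour (log2 fold change 0.31 ± 0.08 SE), with replicate 3 the lowest. Heatr1 overlaps Lgals8 on the other strand, as 12 of 38 members overlap a protein-coding gene there, and strand use is not given in the sources used here. Lgals8 averaged 84.2 ± 4.28 CPM in Vec against 89.2 ± 7.28 CPM in CD43-KO. Utp20, a scaffold of the small-subunit processome, was at 59.0 to 71.8 CPM in Vec and at 77.3 to 84.7 CPM in 4 CD43-KO tumours, but at 47.7 CPM in CD43-KO replicate 3. The remaining members of this role, Wdr43, Wdr75, Nop14, Rrp12, Bysl and the nuclease Nob1, which makes the last cut of the small-subunit RNA, had log2 fold changes from -0.11 (Nob1, -0.06 without Vec replicate 4) to 0.11 (Wdr43, 0.05 without Vec replicate 1 and 0.07 without CD43-KO replicate 5). The log2 fold change of Utp20 was 0.19 ± 0.15 (SE), and 0.30 without CD43-KO replicate 3.

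All 6 genes of proteins that organise the nucleolus had log2 fold changes above 0, but those of Npm1 and Mybbp1a changed sign under other settings. Ncl, nucleolin, was at 743, 760.05, 879 and 796 CPM in Vec and at 849, 859, 899.99, 856 and 856 CPM with the knockout (0.12 ± 0.08 SE in log2). The CD43-KO tumours were closely spaced, and Vec replicate 3 alone kept the groups from separating. Tcof1, treacle, which links polymerase I to precursor modification, was at 125, 136, 117 and 136 CPM in Vec and at 176, 161, 126, 166 and 142 CPM with the knockout (0.26 ± 0.11 SE), with CD43-KO replicate 3 alone inside the Vec range. Gnl3, nucleostemin, had 4 of 5 CD43-KO tumours above all Vec tumours, at 124 ± 8.29 and 136 ± 7.58 CPM. Without Vec replicate 1, the log2 fold changes of Ncl and Gnl3 were both 0.08, against 0.12 and 0.13 with it. Npm1, nucleophosmin, was the most abundant member per length of exon, with 436 CPM per kb in Vec against 440.3 CPM per kb in CD43-KO, where Ddx21 was at 26.95 and 36.4 CPM per kb. The log2 fold changes of Npm1, Nolc1, a chaperone of snoRNA particles, and Mybbp1a, a nucleolar Myb-binding protein, were 0.01 ± 0.11, 0.05 ± 0.08 and 0.03 ± 0.12 (SE).

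Core proteins of each snoRNA particle had values on both sides of 0. In the box C/D particle, Nop58 and Nop56, its paired scaffold proteins, had log2 fold changes of 0.22 ± 0.12 and 0.13 ± 0.10, while Fbl, fibrillarin, the methyltransferase, had -0.06 ± 0.11 and Rrp9, a protein of the U3 particle, -0.01 ± 0.10 (SE). In the box H/ACA particle, Dkc1, the pseudouridine synthase, had 0.21 ± 0.11, and its partners Gar1, Nhp2 and Nop10 had 0.12 ± 0.10, 0.08 ± 0.19 and -0.10 ± 0.16 (SE). All of these overlapped between groups. Nop58 was at 0.33 without Vec replicate 3, and Nop56 at 0.06 without Vec replicate 1 and 0.08 without CD43-KO replicate 3. With single tumours left out, Gar1 lay between 0.06 and 0.18, lowest without CD43-KO replicate 3 and highest without Vec replicate 3. When scaled by total library size, Gar1 was at 0.21. Nhp2 and Nop10, the members with the shortest coding sequences, were highest in CD43-KO replicate 3 (220.1 and 79.98 CPM) and next in Vec replicate 4 (194 and 76.9 CPM). Small nucleolar RNAs are mostly cut from introns, and 6 of the 38 members (15.8%) held an annotated snoRNA gene on their own strand, namely Ncl, Gnl3, Nop56, Nop58, Dkc1 and Wdr43, against 1.54% of the protein-coding genes tested and 2.68% of the other ribosome biogenesis genes. Of the 19 snoRNA genes so held, 11 were listed by name, with 4 to 237 counts summed over 9 libraries, so their levels were not compared.

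Large-subunit factors lay within 0.2 of 0 in log2 fold change, apart from Rrp1b. Bop1, Pes1 and Wdr12, which form 1 complex, had log2 fold changes of -0.01 ± 0.12, -0.16 ± 0.10 and 0.02 ± 0.11 (SE), and Pes1 was at -0.07 without Vec replicate 4. Nop2, an RNA methyltransferase, and the assembly factors Nop16, Rrs1 and Ebna1bp2 had 0.11, -0.04, 0.11 and 0.19. Without Vec replicate 1 Nop2 was at 0.07 and Rrs1 at 0.03, and Ebna1bp2 was at 0.11 without that tumour and at 0.10 without CD43-KO replicate 3. Rrp1b was at 50.7, 25.9, 27.6 and 20.4 CPM in Vec and at 30.6, 26.4, 27.1, 68.7 and 41.3 CPM in CD43-KO tumours. Its high tumours, CD43-KO replicate 4 and Vec replicate 1, lay in different groups, and its spread was the widest of the members in both groups (coefficients of variation 42.9% and 45.7%, against medians over members of 11.3% and 8.71%). Its log2 fold change of 0.32 ± 0.34 (SE) was 0.01 without CD43-KO replicate 4, 0.15 without Vec replicate 4 and 0.65 without Vec replicate 1.

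Myc was at 118, 129.8, 160.02 and 138 CPM in Vec and at 192, 174, 117, 178 and 153 CPM with the knockout (0.25 ± 0.15 SE in log2). CD43-KO replicates 1, 2 and 4 lay above all Vec tumours and replicate 3 below all of them. Of its network, Mxi1, an antagonist, averaged 91.2 ± 5.80 CPM in Vec against 74.3 ± 12.3 CPM in CD43-KO, and Max, its partner, at 57.3 ± 20.2 and 62.3 ± 21.1 CPM. Of 12 measured network genes 6 were above 0 and 0 passed the edgeR quasi-likelihood test (1 higher and 3 lower at an unadjusted p under 0.05, 0 by DESeq2). Mlxip, a related factor of glucose sensing named because its groups did not overlap, was at 25.1 ± 5.37 and 34.5 ± 3.63 CPM. Of 18 Myc-responsive genes outside ribosome synthesis 8 were above 0, with a median log2 fold change of -0.07. The most abundant, the translation helicase gene Eif4a1 and the mitochondrial chaperone gene Hspd1, had -0.02 and 0.09. Here 0 passed edgeR's quasi-likelihood test, 0 passed DESeq2 and 1 passed limma voom, with 1 higher and 3 lower at an unadjusted p under 0.05. Ctps, a nucleotide synthesis gene, did not overlap between groups (127 ± 6.11 and 148 ± 4.60 CPM).

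The members also differed tumour by tumour, along the length of their coding sequences. CD43-KO replicate 3 was the lowest CD43-KO tumour in 14 members with a median coding length of 2992.5 bases, among them Utp20, Heatr1, Polr1a, Tcof1 and Mybbp1a, and the highest in 12 members with a median of 1125 bases, among them Nop10, Nhp2, Gar1 and Fbl. When members were split at their median coding length of 1752 bases, a split chosen after the levels were seen, the median deviation from the Vec mean in that tumour was 0.19 log2 for the 19 shorter and -0.06 for the 19 longer ones. In CD43-KO replicate 4 it was 0.07 and 0.20, and in Vec replicate 4, 0.13 and 0.01. Among the other protein-coding genes tested, those with shorter and longer coding sequences were likewise at 0.05 and -0.10 in CD43-KO replicate 3, at 0.07 and -0.11 in Vec replicate 4, and at -0.09 and 0.13 in CD43-KO replicate 4. Over those genes the median log2 fold change was -0.02 for 9028 shorter and 0.10 for 5066 longer coding sequences. Ddx21 (2553 bases), Heatr1, Polr1a, Tcof1 and Utp20 are among the longer members, so their values stand beside a difference by length that was present in all genes, and its part in them was not tested.

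**Figure D3:**
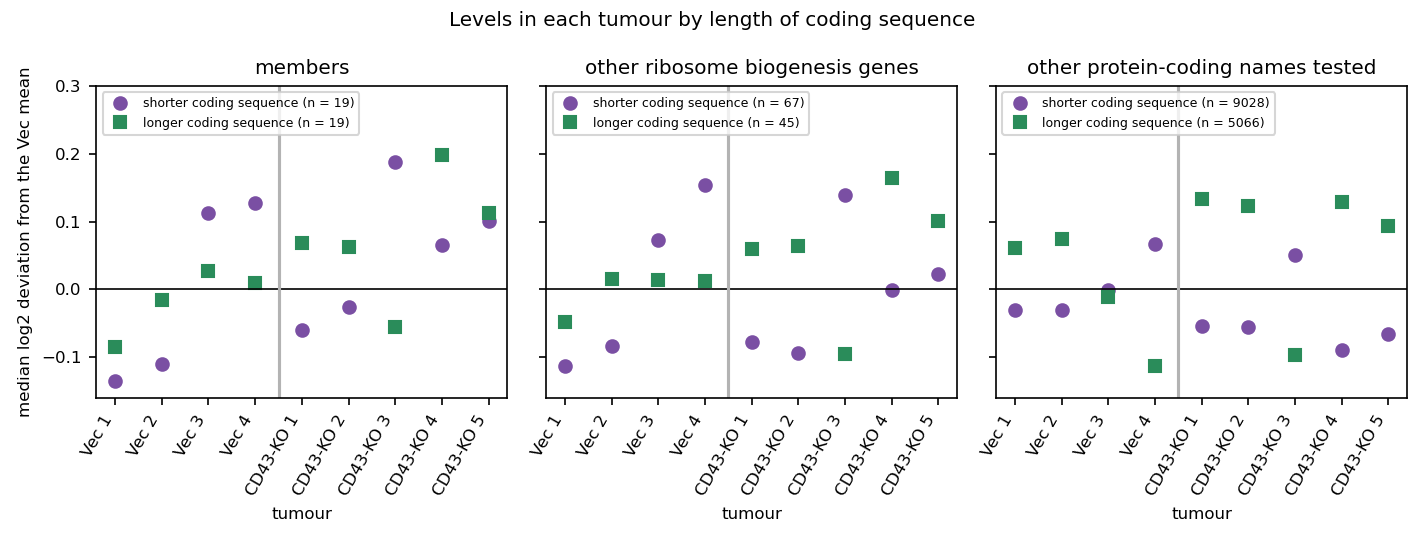
Median log2 deviation from the Vec mean (vertical axis) in each of 9 tumours (horizontal axis) for genes with coding sequences under 1752 bases (circles) and of 1752 bases or more (squares), for the 38 members, 112 other ribosome biogenesis genes and the other protein-coding genes tested. Shorter genes lay above longer ones in Vec replicates 3 and 4 and CD43-KO replicate 3 in all 3 panels, and below them in the other tumours.

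Vec replicate 1 was the lowest of the 9 tumours for 15 of 38 members. It was also the lowest for 32 of 112 other ribosome biogenesis genes, and for 9.34% of all names tested. CD43-KO replicate 3 and Vec replicate 4 were each the highest for 9 members, against 22.8% and 18% of all names. Among the 112 other ribosome biogenesis genes they were the highest for 23 and 38. The median deviation of the members ran from -0.12 (Vec replicate 1) to 0.09 (Vec replicate 4) in Vec tumours and from 0.02 to 0.12 in CD43-KO tumours, so the groups overlapped. A set of 12 proliferation genes had summed levels from 2410 to 2925 CPM in Vec and from 2740 to 3085 CPM in CD43-KO, lowest in Vec replicate 1 and highest in CD43-KO replicate 4, and its part in the members' levels was not tested.

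**Figure D4:**
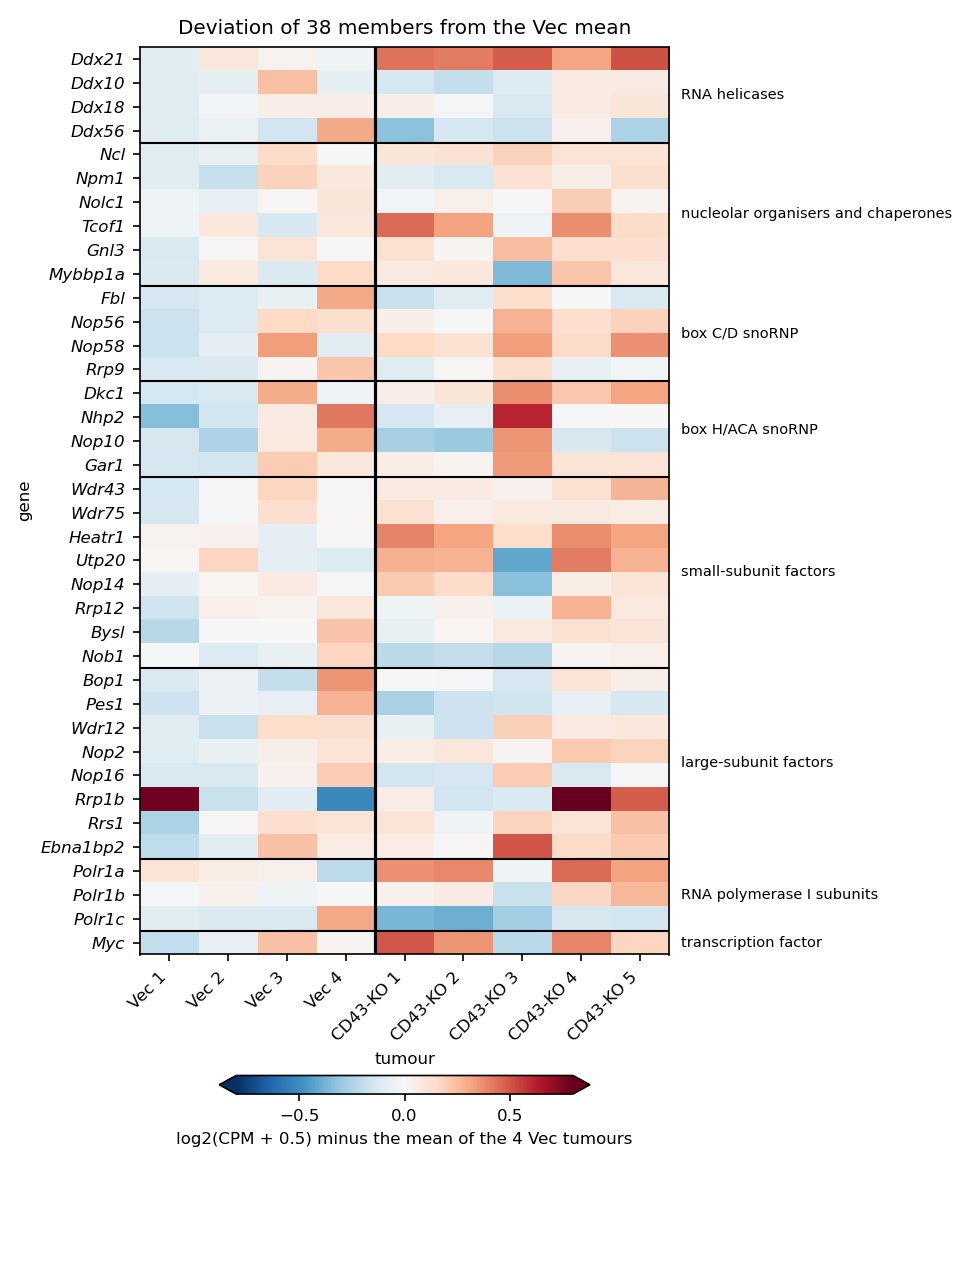
Deviation of each member (rows, by role) in each tumour (columns) from the mean of the 4 Vec tumours, as log2(CPM + 0.5), red for higher and blue for lower. Ddx21 was higher in all 5 CD43-KO tumours, Vec replicate 1 was lowest for 15 members, and CD43-KO replicate 3 had low Utp20, Mybbp1a and Nop14 beside high Nhp2 and Nop10.

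Other genes of the pathway, 112 in 5 lists outside the members, were near 0 as a whole. Of these 69 had a log2 fold change above 0 and 43 below, with a median of 0.04 and a range from -0.74 to 0.47 (87 above and 25 below when scaled by total library size). edgeR's quasi-likelihood test called 0 (4 higher and 6 lower at an unadjusted p under 0.05, adjusted p of 0.214 or more), and DESeq2 called 1, the small-subunit factor Rrp36, as lower. Rrp36 was at 17.1, 36.0, 35.8 and 19.5 CPM in Vec replicates 1 to 4. In CD43-KO tumours it ranged from 15.1 to 18.2 CPM, so the groups overlapped. In the small-subunit list 27 of 40 were above 0, and Rrp7a and Tsr1, the most abundant, were at 157 ± 15.5 and 94.7 ± 6.05 CPM in Vec and at 158 ± 8.58 and 109 ± 10.2 CPM in CD43-KO tumours. Wdr3, a processome protein, was the 1 gene of the 112 whose groups did not overlap, at 71.1, 70.98, 73.7 and 73.1 CPM in Vec and at 81.8, 79.7, 77.3, 83.9 and 91.03 CPM in CD43-KO tumours. Among all names tested, 2.08% were higher without overlap and 3.5% lower.

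In the large-subunit list 25 of 40 were above 0, with Eif6 at 354 ± 56.2 and 350.5 ± 17.96 CPM and Noc2l at 238 ± 17.6 and 249.8 ± 20.5 CPM. For polymerase I, 8 of 12 further genes were above 0, with the architectural factor Ubtf at 297 ± 13.9 and 269 ± 20.7 CPM and Polr1d, the partner of Polr1c, at 159 ± 26.4 and 140.4 ± 29.0 CPM. Assembly factors of snoRNA particles had 3 of 9 above 0, where Snu13 was at 176 ± 24.8 and 183 ± 28.0 CPM and Ruvbl2 at 151 ± 24.8 and 141 ± 7.09 CPM. The RNA exosome had 6 of 11 above 0, with Mtrex at 91.6 ± 5.53 and 99.3 ± 5.79 CPM and Exosc8 at 83.8 ± 10.7 and 88.9 ± 11.9 CPM.

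Long non-coding genes listed by name as snoRNA hosts had 9 of 10 log2 fold changes above 0 (54% of all names tested were), with a median of 0.20. Of these, 0 passed edgeR's quasi-likelihood test (0 higher and 1 lower at an unadjusted p under 0.05). In the annotation used here, Snhg20 held no snoRNA gene and Snhg4 was not found. Gas5 and Snhg1, the most abundant, were at 268 ± 50.8 and 141 ± 35.2 CPM in Vec and at 296 ± 40.5 and 149 ± 7.71 CPM in CD43-KO tumours. Snhg12 was the exception, at 61.4, 59.8, 71.1 and 71.5 CPM in Vec and at 53.6, 44.8, 53.1, 55.5 and 53.8 CPM in CD43-KO tumours without overlap, and DESeq2 called it lower (adjusted p = 0.0473).

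DEAD-box helicases outside the members had 6 of 18 log2 fold changes above 0 and a median of -0.04, with 0 passing edgeR's quasi-likelihood test and 0 DESeq2 (1 higher and 2 lower at an unadjusted edgeR p under 0.05). Ddx5 and Ddx17, abundant nuclear helicases, had 0.03 and -0.02. Genes of proteins that Ddx21 is known to work with outside ribosomal RNA processing had 3 of 9 above 0, with 0 at an unadjusted edgeR p under 0.05 and 0 by DESeq2. Jun was at 444 ± 54.4 and 440.1 ± 32.4 CPM and Parp1, which modifies Ddx21 in the nucleolus, at 117 ± 9.32 and 131 ± 12.6 CPM.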

How the data were processed

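RNA of 9 whole tumours was measured. The authors deposited 1 table of whole-number counts per gene name for each library, without any scaling. HISAT2 2.1.0, StringTie 1.3.5, DESeq2 and the build GRCm38 are named in the submitters' processing notes, with no role. How reads were counted, and whether by strand, is not given in the sources used here. Replicates were numbered in accession order and pair no samples, and p-values measure the spread between these tumours. No 2 libraries agreed within sampling noise (over 36 pairs, chi-square divided by its degrees of freedom was 35.7 or more). All 9 tables were used, with 0 columns lacking a sample, and 26 names turned into dates stayed in the totals unnamed.

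Names were kept by filterByExpr (minimum count 10, minimum total 15) and scaled by TMM. Groups were compared by the quasi-likelihood F test of edgeR 4.0.16 (R 4.3.3), with Benjamini-Hochberg adjustment over 18243 names and a threshold of 0.05. DESeq2 1.42.0, limma 3.58.1 voom, other scalings and filters, names without a copy suffix and leaving out each tumour were alternatives. The SE is the log2 fold change over the square root of F. Positions, lengths and snoRNA genes are from GENCODE M21 (GRCm38), the coding length being that of the longest coding sequence. The fit was also run on simulated data, where the differences put in were larger than that of any member. That run therefore does not bear on differences of the members' size.

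The members and lists were chosen with earlier results of these data known. All 38 members were named. In other lists the 2 most abundant genes were named, as none passed edgeR's test, and Ddx50. Wdr3, Rrp36, Mlxip, Ctps and Snhg12 were added after their values were seen.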

Additional observations from a re-analysis of the deposited data

Results flagged for a closer look

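Within groups, 10 of 76 sets of member levels held a tumour far from the others, and these sets share the same 9 tumours. Chance flags about 1 in 20 such groups, and 9.2% of the 36486 sets over all names tested held one. CD43-KO replicate 3 accounted for 5 of the 10, as for 45.3% over all names, with Ncl at 900.0 CPM (849 to 859 in the other CD43-KO tumours), Nhp2 at 220.1 CPM (132 to 144), Nop10 at 79.98 CPM (50.9 to 57.2), Gar1 at 100.3 CPM (80.4 to 85.5) and Utp20 at 47.7 CPM (77.3 to 84.7). CD43-KO replicate 4 had Nolc1 at 150.3 CPM, against 129 to 135 CPM. Vec replicate 3 had Ddx10 at 71.7 CPM (57.2 to 57.5 in the other Vec tumours) and Nop58 at 229 CPM (161 to 172). Vec replicate 4 had Fbl at 255 CPM (187 to 197) and Polr1c at 127 CPM (94.4 to 96.4). The cause was not tested.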

How the results depend on the processing

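Ddx21 and Heatr1 lay above, in all CD43-KO tumours against all Vec tumours, under each of 16 alternatives, and Polr1c below under each but total library size. For most alternatives this outcome was set in advance and adds no support. DESeq2 and limma voom were read on the same scaled levels, and leaving out a tumour can hardly make separated groups overlap. Without CD43-KO replicate 3 the groups also separated for Tcof1, Utp20 and Polr1a (6 members, beside 5.63% higher and 7.58% lower of all names), and without Vec replicate 3 for Ncl, Nop58, Dkc1, Wdr43 and Wdr75 (8 members, beside 5.25% and 7.89%). Gnl3 separated, higher, without CD43-KO replicate 2 (2.63% of all names were higher) and Pes1, lower, without Vec replicate 1 (4.64% were lower). Leaving out 1 tumour gave 3 to 8 members without overlap, and 1 to 13 of the other pathway genes, the 13 without CD43-KO replicate 3. The number of names past an adjusted p of 0.05 with edgeR was 0 to 29 when 1 tumour was left out (29 without Vec replicate 3), 1 with no filter, 612 with DESeq2 and 497 with limma voom. Among members it was 2 with DESeq2 and 2 with limma voom, and among the other pathway genes 1 with DESeq2. With total library size, the median of all names moved to 0.11, the member median to 0.16 and that of other pathway genes to 0.13. Of these pathway genes 6 did not overlap, beside 3.05% higher and 2.09% lower of all names. The member median was 0.02 without Vec replicate 1, and the other median -0.01. Of 38 members 25 kept the sign of their log2 fold change in all 16 alternatives and 13, all between -0.10 and 0.08, did not. No paired analysis was possible because the labels give the tumours no shared numbers. The cause of these shifts was not tested.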
